A study of Homo sapiens with 2 samples.

Results

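Chromosome 6 was examined gene by gene in A549 cells carrying the LV5 control vector (A549-LV5) and in A549 cells in which ZNF300 was overexpressed (A549-ZNF300). A549 is a human lung adenocarcinoma line, ZNF300 is a zinc finger protein, and both cultures received a lentivirus. RNA of each culture was measured on 1 Affymetrix U133 Plus 2.0 array, so there were 2 arrays in all, no replicate error and no test. Each value compares these 2 cultures and not the conditions at large. The members were all detected genes of chromosome 6 other than histone genes, 692 of the 13221 detected genes. A gene was detected when a probe set naming that gene alone lay at or above the array median on either array, and the brightest of its probe sets by mean log2 signal gave its level. The log2 ratio is the log2 signal in A549-ZNF300 minus that in A549-LV5, and chromosome 6 was chosen by these log2 ratios, which were already known to be low there. Of 1047 such genes with a usable probe set, 355 were not detected, and the 16 detected histone genes of the chromosome were left out.

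The short arm of chromosome 6 (6p) holds the major histocompatibility complex (MHC), a dense cluster of immune genes. Its class I genes encode the molecules that show peptides to cytotoxic T cells, and its class II region also holds the genes for the peptide transporter TAP and for subunits of the immunoproteasome, which cuts proteins into such peptides. Around this cluster lie butyrophilin, zinc finger and histone genes. The long arm (6q) holds kinases, regulators of NF-kB and growth factors.

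ZNF300 itself had a log2 signal of 4.16 in A549-LV5 and 8.91 in A549-ZNF300, below and above the array medians of 6.14 and 6.03. Of 11 markers of A549 and epithelial cells, 9 reached the median in both arrays. KRT19 (2.29 and 11.1) and CDH1 (1.20 and 10.9), which encode a keratin and E-cadherin, were below the median in A549-LV5, so the 2 cultures differed in defining epithelial markers. Further keratins and EPCAM, above the median in both arrays, were higher in A549-ZNF300 as well, with ratios of 4.92 for KRT7, 4.32 for KRT8 and 2.37 for EPCAM. Of 6 markers of other cell types, 3 reached the median in both arrays and 3 in neither, and they ran from 2.18 to 7.90 in A549-LV5 and from 4.38 to 10.4 in A549-ZNF300. The highest of them was the collagen gene COL1A1, with 7.90 and 10.4. Over the 11, log2 signals ran from 1.20 to 14.8 in A549-LV5 and from 8.84 to 15.2 in A549-ZNF300. The part of these differences in the results for chromosome 6 was not tested. In bulk RNA, fewer cells with a transcript and less of it per cell cannot be told apart.

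The promoters of 7 members are shown because the results turn on these genes. HLA-B and HLA-C carry peptides at the cell surface, TAP1 is a subunit of the transporter, PSMB9 is an immunoproteasome subunit, ID4 and SOX4 are developmental regulators with opposite ratios that lie near each other, and RSPO3 had the highest ratio among genes at or above the median in both arrays and all of whose probe sets share a sign. Sequences are RefSeq windows of 300 bases on GRCh38.p14, read 5′ to 3′ on the strand of the gene, and the first entry of each gene was taken. Capitals mark matches on either strand to 7 motifs. The NF-kB-type element was searched as GGGGATTC and the interferon response-type element as GAANNGAAA. The CCAAT box was searched by its own letters, the AP-1 element as TGANTCA and the E-box as CACGTG. The TATA box was searched as TATAAA and the zinc finger element rich in GC as GCGGGGGCG. Overlapping matches were all kept, and the first of these motifs was set with the promoters of HLA-B and HLA-C in view.
HLA-B, chr6:31357130-31357429, minus strand: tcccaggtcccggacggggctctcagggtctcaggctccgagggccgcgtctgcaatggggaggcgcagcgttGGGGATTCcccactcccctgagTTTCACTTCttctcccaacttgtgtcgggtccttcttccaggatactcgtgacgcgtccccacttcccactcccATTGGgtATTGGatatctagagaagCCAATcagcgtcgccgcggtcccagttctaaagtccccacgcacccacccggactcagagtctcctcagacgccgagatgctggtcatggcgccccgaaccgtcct
HLA-C, chr6:31272043-31272342, minus strand: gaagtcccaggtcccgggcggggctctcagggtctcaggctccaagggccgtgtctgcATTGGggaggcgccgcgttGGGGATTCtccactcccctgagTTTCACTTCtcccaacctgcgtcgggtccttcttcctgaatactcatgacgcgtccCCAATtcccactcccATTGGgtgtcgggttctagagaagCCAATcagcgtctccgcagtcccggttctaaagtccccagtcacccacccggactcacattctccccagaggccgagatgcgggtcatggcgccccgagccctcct
TAP1, chr6:32853655-32853954, minus strand: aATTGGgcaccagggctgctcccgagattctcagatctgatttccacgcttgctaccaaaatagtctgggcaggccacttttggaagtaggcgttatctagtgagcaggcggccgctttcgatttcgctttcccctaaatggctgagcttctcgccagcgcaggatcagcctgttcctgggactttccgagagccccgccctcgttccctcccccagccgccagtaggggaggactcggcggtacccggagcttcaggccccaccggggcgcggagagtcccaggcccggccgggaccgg
PSMB9, chr6:32853942-32854241, plus strand: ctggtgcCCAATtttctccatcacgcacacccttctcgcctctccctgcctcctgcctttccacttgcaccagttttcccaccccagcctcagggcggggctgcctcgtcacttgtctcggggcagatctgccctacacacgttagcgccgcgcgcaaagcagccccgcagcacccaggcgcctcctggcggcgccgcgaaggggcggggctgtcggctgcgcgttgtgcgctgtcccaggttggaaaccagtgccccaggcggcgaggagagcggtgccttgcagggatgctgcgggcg
ID4, chr6:19837120-19837419, plus strand: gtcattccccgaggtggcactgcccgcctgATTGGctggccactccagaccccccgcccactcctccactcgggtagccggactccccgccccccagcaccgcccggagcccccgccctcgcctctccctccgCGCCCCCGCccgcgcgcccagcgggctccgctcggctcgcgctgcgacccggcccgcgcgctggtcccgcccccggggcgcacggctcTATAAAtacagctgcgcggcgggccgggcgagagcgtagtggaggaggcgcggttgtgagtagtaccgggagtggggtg
SOX4, chr6:21593501-21593800, plus strand: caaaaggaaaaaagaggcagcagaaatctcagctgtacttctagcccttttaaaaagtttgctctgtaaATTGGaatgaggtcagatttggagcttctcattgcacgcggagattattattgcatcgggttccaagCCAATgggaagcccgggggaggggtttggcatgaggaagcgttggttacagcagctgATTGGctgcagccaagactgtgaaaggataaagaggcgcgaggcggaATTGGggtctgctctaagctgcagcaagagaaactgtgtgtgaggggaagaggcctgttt
RSPO3, chr6:127118421-127118720, plus strand: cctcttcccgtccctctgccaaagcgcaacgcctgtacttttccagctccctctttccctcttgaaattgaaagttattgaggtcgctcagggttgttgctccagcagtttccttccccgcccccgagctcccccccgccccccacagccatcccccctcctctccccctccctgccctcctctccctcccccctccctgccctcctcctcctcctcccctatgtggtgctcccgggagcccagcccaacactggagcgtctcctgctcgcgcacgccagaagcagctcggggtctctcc
TAP1 and PSMB9 start in opposite directions, and their windows share 13 bases, with the same CCAAT box in both. The NF-kB-type letters, present in HLA-B and HLA-C, stood in 8 of the 610 members with a promoter in the table (1.31%), in 0.995% of detected genes elsewhere and in 246 of all 27305 promoters (0.901%). The interferon response-type letters stood in 7.54% of the 610 members, 6.17% of detected genes elsewhere and 7.86% of all promoters. They stood in 10.3% of members at least 2-fold lower, 10.5% of those at least 2-fold higher and 5.69% of those under 2-fold. The TATA box was found in 9.34% of members, 5.60% of detected genes elsewhere and 12.0% of all promoters, and the CCAAT box in 35.2% and 35.7%. Among members at least 2-fold lower, median GC content was 63.5%, among those at least 2-fold higher it was 59.0% and among those under 2-fold 63.7%. Each element was searched only in the spelling given, so other forms of it stay in lower case, as in TAP1 and RSPO3. The shares count these spellings alone, and a promoter without capitals is not shown to lack an element. These matches are descriptions of letters and not of binding.

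Most of chromosome 6 had less signal in A549-ZNF300. Of the 692 genes, 513 (74.1%) were lower and 179 were higher, where 53.4% of all 13221 genes were lower. The median log2 ratio was -0.54, against -0.04 over the 12513 genes elsewhere, a difference of -0.50. At least 2-fold lower were 208 members (30.1%, against 15.4% of all genes), and at least 2-fold higher were 66 (9.54%, against 13.6%). The rule for the members used these ratios, so the shares are descriptions. Of the members at least 2-fold apart, 75.9% were lower, while among all genes 2038 of the 3832 so far apart were. The share of members became 88.9% after centring on the median level of housekeeping genes. That centring moved the median of all genes by -0.53 and left 31.39% of them at least 2-fold lower. The rise therefore follows from a shift of every gene alike. Signals of members had a median of 9.71 in A549-LV5 and 9.05 in A549-ZNF300, while those of other genes had medians of 9.37 in both.

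**Figure D1:**
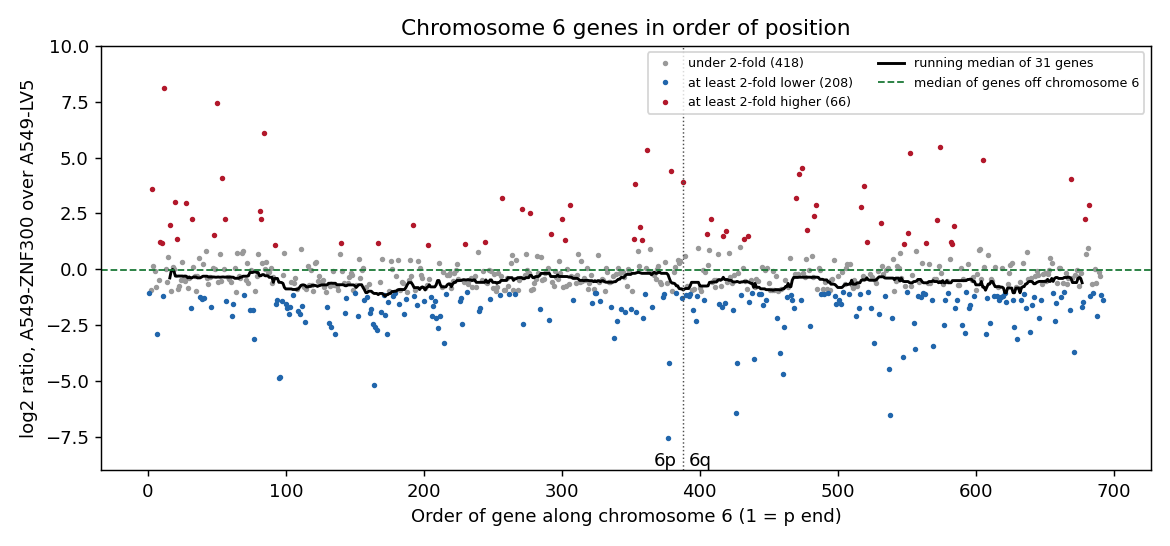
Log2 ratio (A549-ZNF300 over A549-LV5, 1 array each) of the 692 chromosome 6 genes against their order from the p end. Blue points are the 208 genes at least 2-fold lower and red points the 66 at least 2-fold higher, the black line is the running median of 31 genes, the dashed line is the median of genes off chromosome 6 (-0.04) and the dotted line parts 6p from 6q.

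The shift was spread over the genes and did not rest on a few large ratios. From the 5th to the 30th percentile, chromosome 6 lay 0.53 to 0.58 below the other genes, and from the 40th to the 80th it lay 0.49 to 0.52 below. The curves then came together, with differences of -0.37 at the 90th and -0.08 at the 95th percentile. Over all members, which include 53 below the median in A549-LV5 only, ratios at the upper end were thus close to those elsewhere. Among genes at or above the median in both arrays they were not. There the 90th percentile was 0.46 on chromosome 6 and 0.97 elsewhere, and 4.88% and 9.52% were at least 2-fold higher.

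**Figure D2:**
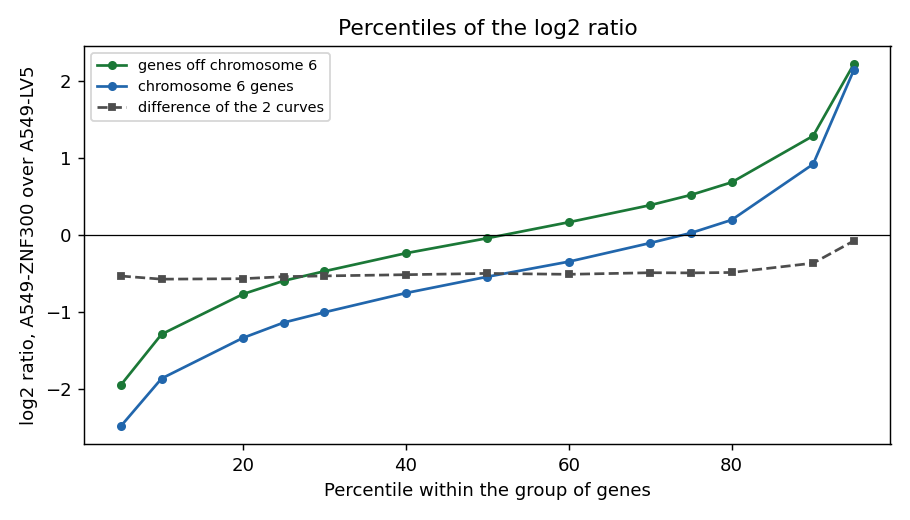
Percentiles of the log2 ratio for chromosome 6 genes (blue, 692) and other genes (green, 12513), with the difference of the curves dashed. The curves run nearly parallel up to the 80th percentile and meet near the 95th, where the difference is -0.08.

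The shift was also present among members measured in both arrays. The 574 members at or above the median in both arrays had a median ratio of -0.54, against -0.05 for 10591 such genes elsewhere. With signals below the median raised to it, the median of all members was -0.50, with 190 at least 2-fold lower and 42 higher (12.1% and 10.3% of all genes). Split by mean signal into 3 classes of near-equal size, members had medians of -0.44, -0.71 and -0.44 from dim to bright, and other genes -0.13, -0.06 and 0.01. Of 357 members with several detected probe sets, all sets were lower in 231, all higher in 52 and of both signs in 74. Probe sets had one sign in 79.3% of these members and in 67.5% of all genes with several. The SD of the ratio between probe sets of a gene had a median of 0.35, a spread of probe sets and not of cultures.

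Both arms were lower. The 387 genes of 6p had a median of -0.50 and the 305 genes of 6q one of -0.59, with 73.9% and 74.4% of genes lower. The arms differed by -0.10, and this difference turned to 0.038 with a filter at the 75th percentile. No order of the arms was therefore read from it. Genes elsewhere on the genome were compared by chromosome: of 23 chromosomes, chromosome 6 had the lowest median, ahead of chromosome 3 with -0.24, while chromosome 9 had the highest with 0.34.

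**Figure D3:**
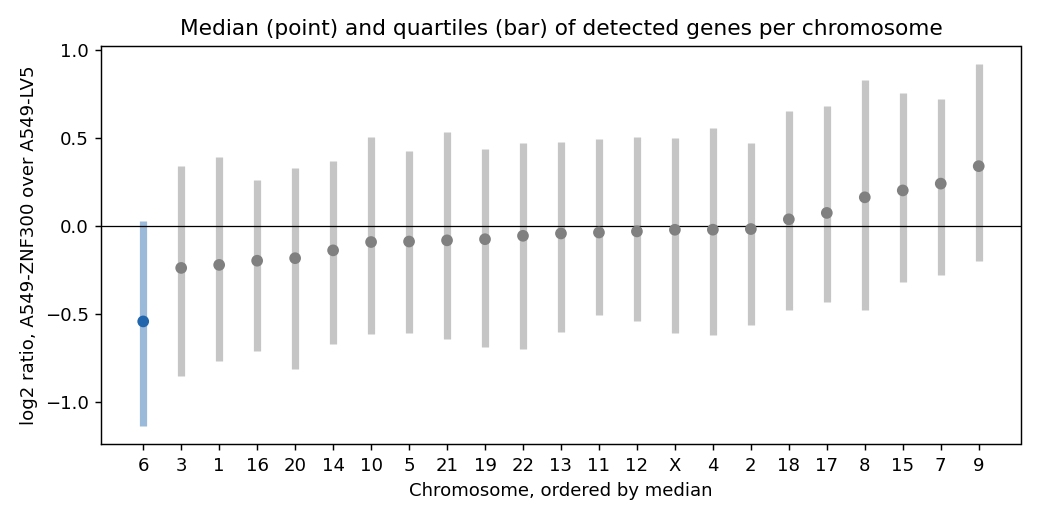
Median (point) and quartiles (bar) of the log2 ratio of detected genes on each of 23 chromosomes, ordered by median, with chromosome 6 in blue at -0.54. Its upper quartile, 0.02, lies near 0, and the next lowest median is -0.24 on chromosome 3.

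Along the chromosome, 16 windows of 10 Mb on GRCh38 held at least 10 members, and the median of each of the 16 was below that of the other genes. On the other chromosomes 125 of 275 such windows (45.5%) were below it, and on chromosome 3, the next lowest by median, 16 of 19 were. Windows of 5 Mb were below it in 25 of 28 cases and 10 Mb windows shifted by 5 Mb in 17 of 18. The lowest median, -1.07, was that of 14 genes from 90 to 100 Mb, where 12 were lower. This stretch holds EPHA7, an ephrin receptor, and MAP3K7, the kinase TAK1 that relays signals to NF-kB. The highest, -0.25, was that of 25 genes from 50 to 60 Mb, where 16 were lower. The window from 30 to 40 Mb, with most of the MHC, was the densest with 150 genes, 124 of them lower and a median of -0.64. Windows from 60 to 70 Mb and from 170 to 180 Mb held 4 and 5 members, too few for this count.

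**Figure D4:**
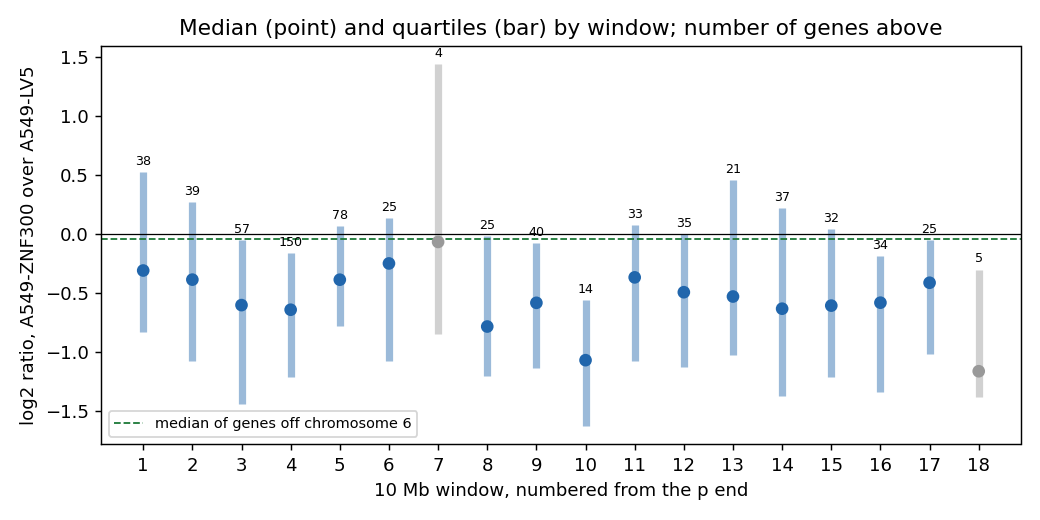
Median (point) and quartiles (bar) of the log2 ratio in each 10 Mb window of chromosome 6, numbered from the p end, with the number of genes above each bar and windows of under 10 genes in grey. All 16 blue points lie between -1.07 and -0.25, below the dashed median of genes off chromosome 6.

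Unbroken stretches of lower genes are given as positions only, since with 74.1% of genes lower such stretches are common in any order. The longest held 16 genes and occurred at 2 places, from ZKSCAN3 to PPP1R11 in the MHC (28.3 to 30.1 Mb, median -0.75) and from MTRF1L to SYTL3 on 6q (153 to 159 Mb, median -0.42). Another 15 genes from UBE2J1 to FAXC (89.3 to 99.4 Mb) had a median of -0.92. The longest stretch of higher genes held 7, from CDKAL1 to GPLD1 (20.5 to 24.5 Mb, median 0.69). It includes SOX4 and the neighbouring long non-coding RNA CASC15.

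The class I pathway of antigen presentation was lower throughout. All 10 detected genes of the list were at least 2-fold lower, against 30.1% of the chromosome and 15.4% of all genes. Their median was -2.29, against -0.54 for the chromosome and -0.06 for all genes. HLA-B, which presents peptides to T cells, had log2 signals of 13.5 in A549-LV5 and 10.8 in A549-ZNF300, a 6.60-fold difference. HLA-C, a further classical class I gene, had 14.1 and 11.5, a ratio of -2.57. HLA-G, a non-classical class I gene, had 12.6 and 10.1, a ratio of -2.59. In each of these genes every detected probe set was lower, but class I genes are near-identical copies, and probe sets may share signal between them. HLA-E (-1.98), a ligand of an NK cell receptor, and HLA-F (-2.40) were lower too. The transporter gene TAP1 had 11.3 and 9.15, a ratio of -2.18, and its partner TAP2 a ratio of -2.08. TAPBP encodes tapasin, which loads peptides onto class I molecules, and its ratio of -1.29 was the smallest in size of the 10. All 3 probe sets of TAP2 were lower but ran from -2.08 to -0.19, and the 3 of TAPBP from -1.57 to -0.50. The immunoproteasome subunit PSMB9 had 11.9 and 9.28, a 6.13-fold difference, and PSMB8 had 11.1 and 9.46. The genes of this pathway were all above both array medians, so their levels were measured on both sides.

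**Figure D5:**
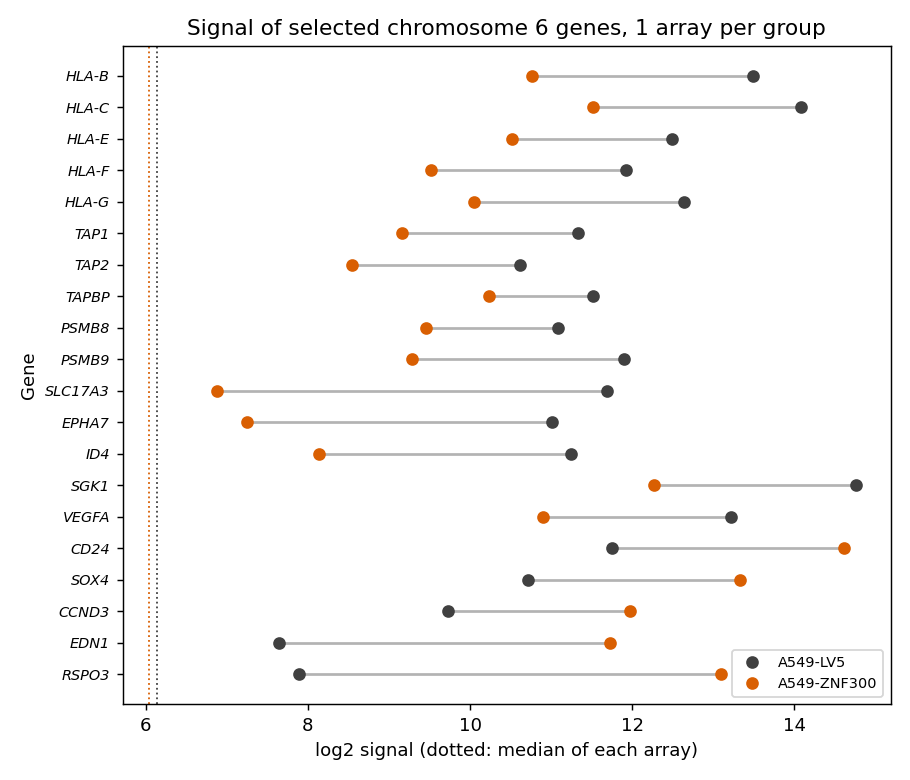
Log2 signal of 20 chromosome 6 genes in A549-LV5 (grey) and A549-ZNF300 (orange), 1 array each, with dotted lines at the array medians of 6.14 and 6.03; the genes were picked for display after their values were seen. The 10 class I genes at the top and the 5 genes from SLC17A3 to VEGFA are lower in A549-ZNF300, and CD24, SOX4, CCND3, EDN1 and RSPO3 are higher.

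Class II genes were mostly dim and mixed. Of 7 detected genes, 5 were lower and 2 higher, with a median of -0.42. HLA-DMA, which helps load class II molecules, had 9.71 and 7.61, while its partner HLA-DMB had 7.65 and 7.92, a ratio that turned to -0.26 when centred on the median level of housekeeping genes. HLA-DPA1, a class II chain, had 7.90 and 4.59, the latter below the array median. The whole interval from 28 to 34 Mb held 126 members with a median of -0.70, of which 84.1% were lower. Without it, the other 566 members had a median of -0.49. The class III list, with 30 genes, had a median of -0.76. There LTB, a cytokine of the tumour necrosis factor family, had a ratio of -2.05 with 1 of its 2 probe sets lower, and CFB, complement factor B, had 6.89 and 8.88, the highest ratio of the list at 1.99.

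Further immune genes near and far from the MHC differed among themselves. The 4 detected ligands of the NK receptor NKG2D were lower, with MICB at 11.1 and 9.14 and MICA at 10.3 and 9.74. ULBP1, with 6.21 and 3.60, lay near the detection threshold, and its ratio of -2.61 became -0.17 with dim signals raised. ULBP2 had a ratio of -1.38, but its other probe set had -0.15. Of 5 butyrophilins, which act on T cells, 4 were at least 2-fold lower (80%, against 30.1% of the chromosome and 15.4% of all genes). BTN3A2 had 7.72 and 8.45, a ratio of 0.73. BTN3A3 had 8.91 and 6.89. Immune genes outside the MHC were the only list of the 22 with a median above that of all genes, at 0.80 for 11 genes. That median moved to -0.0045 with dim signals raised. CD24, a surface glycoprotein, had 11.7 and 14.6, with all 6 probe sets higher. PRDM1, a transcriptional repressor that acts in lymphoid cells, had 6.81 and 8.58.

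Most genes of the list named for MAPK and NF-kB signalling were lower. The list was wider than these pathways, since it also held SGK1, PIM1, FYN, PTK7 and PERP. Its values are therefore not those of the pathways alone. Of 19 detected genes, 16 had less signal in A549-ZNF300, 10 by 2-fold or more (52.6%, against 30.1% of the chromosome and 15.4% of all genes), with -1.07 as the median ratio against -0.54 and -0.06. SGK1, a kinase induced by serum and steroids, had 14.8 and 12.3, a 5.63-fold difference. PIM1, a survival kinase, had 10.8 and 8.29. FYN, a kinase of the Src family, had 9.66 and 7.55, with all 5 probe sets lower. NFKBIE, an inhibitor of NF-kB, had a ratio of -1.91, and TNFAIP3 (A20), another, had one of -0.70. TNFRSF21, STK38 and PERP were the 3 higher genes.

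Secreted factors took both directions. VEGFA, the main angiogenic growth factor, had 13.2 and 10.9, with all 4 probe sets lower. EDN1, which encodes the vasoconstrictor endothelin, had 7.65 and 11.7, a 16.9-fold difference. RSPO3, an enhancer of Wnt signalling, had 7.88 and 13.1, a 37.1-fold difference from 1 probe set. BMP5, a bone morphogenetic protein, had 8.44 and 4.23, the latter below the array median. Over 9 detected genes the median was -0.76, and it turned to 0.22 when both arrays had to reach the median or without probe sets ending in _x_at and _s_at.

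Developmental transcription factors were mixed as well. Of 30 genes, 21 were lower and 9 higher, with 10 (33.3%) and 5 (16.7%) at least 2-fold, against 30.1% and 9.54% of the chromosome and 15.4% and 13.6% of all genes. ID4, an inhibitor of basic helix-loop-helix factors, had 11.2 and 8.13, with all 4 probe sets lower. SOX4, a factor of the SOX family on the same arm, had 10.7 and 13.3, with all 5 probe sets higher. E2F3, between the pair, had a ratio of -0.29.

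Genes of the list named for the cell cycle and DNA replication or repair took both directions. The list was wider than its name, since it also held CDC40 and CDKAL1. Of 33, 21 were lower and 12 higher, with 4 at least 2-fold lower (12.1%) and 5 at least 2-fold higher (15.2%), shares close to the 15.4% and 13.6% of all genes. CCND3, which encodes cyclin D3, had 9.73 and 12.0, a ratio of 2.24. TTK, a kinase of the spindle checkpoint, had a ratio of 1.48, and GMNN, which restrains replication licensing, one of 1.08. CENPW, a centromere protein, had 9.82 and 11.5, and KIFC1, a mitotic motor, 8.22 and 9.36. In the other direction KATNA1, a microtubule-severing enzyme, had 11.1 and 9.58. The remaining genes at least 2-fold lower were PIM1 (-2.47), CUL9 (-1.06) and CDC40 (-1.01), and CDKN1A, which encodes the inhibitor p21, had a ratio of -0.93. The median of the list was -0.28. Each of the 5 genes at least 2-fold higher had 1 detected probe set, as had KATNA1, PIM1 and CUL9.

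Of the 5 brightest members, RPS12 had the ratio farthest from 0, with 15.5 and 15.1. Of 20 genes on the list named for the cytosolic ribosome and translation 20 were lower, with a median of -0.43. The list also held WRNIP1, XPO5 and LSM2, so its values are not those of translation genes alone. Only GNL1 and RPF2 were at least 2-fold lower (10%, against 30.1% of the chromosome and 15.4% of all genes). RPS10 had 15.5 and 15.4, EEF1A1 15.4 and 15.4, and RPL10A 15.3 and 15.2. The ratios of RPS10, EEF1A1 and RPS18, as well as that of the ferritin pseudogene FTH1P5, turned positive after centring on array medians. Mitochondrial ribosome and translation genes were lower in 11 of 12, with a median of -0.49.

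Single genes lay farther out on both sides. SLC17A3, an organic anion transporter, had 11.7 and 6.88, a 28.1-fold difference. EPHA7 had 11.0 and 7.24, with all 3 probe sets lower. LGSN, which encodes lengsin, a glutamine synthetase relative of the lens, had 7.28 and 11.2. NEDD9, a scaffold of focal adhesions, had 5.04 and 12.5, a ratio of 7.45 that became 6.34 with the dim signal raised. It was the one member below the median in A549-LV5 and above the 90th percentile in A549-ZNF300. Among the 50 long non-coding RNAs the median was -0.21, with 29 lower, against -0.08 for 744 elsewhere.

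At the threshold of detection, TRIM15 (6.04 in A549-ZNF300), LINC02544 (6.04) and ENPP4 (6.06) lay just inside, and LOC100507336 (6.03), SCUBE3 (6.02) and LY6G5C (6.01) just outside. All 6 were dim in A549-LV5, from 2.44 to 5.82.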

How the data were processed

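For A549-LV5 and A549-ZNF300, 1 array each of the Affymetrix U133 Plus 2.0 type was hybridised. The authors deposited normalized log2 signals for 54675 probe sets, which were used as deposited. The submitters' processing notes name MAS5 and affy, and the methods name SCAN/UPC; which of these made the signals is not stated. A second deposited table holds 8187 selected probe sets with the same signals and detection calls. It also holds the authors' fold ratio, their own comparison, which was not used.

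Of the probe sets 41097 name 1 gene, 1801 several and 11777 none; only the first were used. Genes were placed by Entrez ID on the RefSeq table of GRCh38.p14, and arms were parted at 60 Mb, in a stretch without members. Summaries were computed in Python 3.11.15 with pandas 2.3.3 and numpy 2.4.6 and tested on simulated data. The number of arrays limits the precision, and no p-value was computed.

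Genes were named by rule: the 10 highest and 10 lowest ratios among genes at or above the median in both arrays and the 75th percentile in 1, whose probe sets share a sign, genes bright in 1 array and dim in the other, the 3 largest of each list, the extremes of each window, the 5 brightest and those at the detection threshold. Some further list members are named after their values were seen, among them HLA-E, HLA-F, TAP1, TAP2, TAPBP, NFKBIE, TNFAIP3, TTK, GMNN, KIFC1, CUL9, CDC40, CDKN1A, E2F3, BMP5, RPS18, HLA-DPA1 and BTN3A2. The members, the 22 lists and the rule were chosen with earlier results of these data known. Alternatives were other scalings, filters, probe set choices, thresholds, windows and members.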

Additional observations from a re-analysis of the deposited data

How the results depend on the processing

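Of 305 values of the main results under alternatives, 272 stayed within their margin. The margin was a 95% binomial range over genes, or a factor of 1.5 for counts, and not a spread of cultures. Of the 36 settings, 18 left out 1 window each, and none of these moved a main result out of its margin. Such settings change little by design, so the count of 272 is no measure of stability. The difference between chromosome 6 and other genes was below 0 under every alternative run, which centring and the authors' table cannot test. Centring the arrays on their medians gave a chromosome 6 median of -0.44, 69.9% lower and a 6p median of -0.39. It moved the median of all genes by 0.11, with 47.62% of all genes lower. Centring each array on its median level over housekeeping genes gave -1.08, 85.7% lower and 369 genes at least 2-fold lower. The arm medians were -1.03 on 6p and -1.13 on 6q. Of all genes, 75.95% were then lower and 31.39% at least 2-fold lower. That setting moved the median of all genes by -0.53. A centring on the median of each housekeeping gene's own difference was therefore added after seeing the data. It moved all genes by -0.11 and gave -0.65, 78.3% lower (58.53% of all genes) and a 6p median of -0.61. Centring shifts every gene alike, so the difference from other genes stays -0.50 by construction and says nothing of stability. TBP, a housekeeping gene used in both, is itself a member. Without a filter on dim probe sets the median was -0.44, 67.3% were lower, 151 genes were at least 2-fold higher and the difference from other genes was -0.38. With the 75th percentile filter 78.2% were lower, 34 genes were 2-fold higher, the difference was -0.56 and the arms differed by 0.038. With the median in both arrays 78.0% were lower and 28 were 2-fold higher; with dim signals raised 42 were. The MHC interval left out gave a 6p median of -0.40. The authors' table holds only probe sets at least 2-fold apart, so its medians follow from that selection and are no check on the size of the shift or on the arms. It gave -1.35, 79.2% lower, a difference of -0.34, arm medians of -1.42 and -1.23 and an arm difference of 0.19. At 1.5-fold 330 genes were lower; at 3-fold 101 were lower and 43 higher. Windows of 5 Mb gave 25 of 28 below the other genes, shifted windows 17 of 18, no filter 16 of 17 and, from the authors' table, 13 of 14. Among lists, secreted factors turned to 0.22 with the median in both arrays and without _x_at and _s_at probe sets, and immune genes outside the MHC to -0.0045 with dim signals raised. Among genes, centring on medians turned RPS18 (0.070), RPS10 (0.013), FTH1P5 (0.043) and EEF1A1 (0.088); quantile normalization RPS18 (0.045), FTH1P5 (0.032) and EEF1A1 (0.0089); the median housekeeping level HLA-DMB (-0.26), GSTA1 (-0.40) and COQ3 (-0.039); raising dim signals TRIM15 (-0.10), ENPP4 (-0.087) and LINC02544 (-0.10); and leaving out _x_at and _s_at probe sets LTB (1.92) and TFB1M (0.58). The cause of these changes was not tested. No paired analysis was possible because each group has 1 array.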

Other observations

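Probe sets that name several genes were left out of all counts above. On chromosome 6 there were 55 detected ones, of which 45 were lower in A549-ZNF300 and 10 higher. Their median log2 ratio was -0.68. In the authors' table of selected probe sets, 249 probe sets belonged to members, and 184 of them were called present in both arrays, 155 lower and 29 higher.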
